A study of Mus musculus with 12 samples.

Results

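The Bcl11a locus of the mouse was described from every peak that overlapped chr11:23960000-24090000 (mm9, counted from 1), a window of 130.001 kb that holds the gene at about chr11:23978000-24074200. The rule found 90 of the 353805 peaks in the 11 deposited lists, and it used position alone. H3K4me1 (monomethylated histone H3 lysine 4) gave 9, 12 and 6 of these peaks in its 3 libraries, and H3K4me2 gave 12 and 9. H3K4me3 gave 2 and 3, H3K27ac (acetylated lysine 27) gave 14 and 15, and ATAC-seq, in which a transposase cuts open chromatin, gave 3 and 5. The first peaks beyond the window lay 10.031 kb before it (H3K4me2 library 1, fold enrichment 5.28) and 14.784 kb after it (H3K4me1 library 1, fold enrichment 2.12), so no peak touched an edge.

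All 12 samples came from C57BL/6 embryos at embryonic day 14.5, with no mutant or treated group. The marks were read by ChIP-seq in whole fetal liver, with 3 libraries of H3K4me1 and 2 each of H3K4me2, H3K4me3 and H3K27ac. An input sample was not analysed here. Proerythroblasts, early red cell precursors, gave 2 ATAC-seq libraries. Whole liver at this stage is a mixture of red cell precursors, other blood cells and hepatic cells, so a mark seen in it cannot be assigned to a cell type, and more cells with a mark cannot be told apart from more mark per cell. The ATAC sites come from another, narrower population than the marks. For H3K4me2 the labels give 1 antibody among the sample characteristics and another in the protocol, and which was used is unsettled. The labels do not say whether libraries of a group came from separate embryos, so the spread between them may be technical. The tissue labels were not checked against marker genes, because no annotation of the files' build was used.

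Bcl11a encodes a zinc-finger transcription factor that represses embryonic and fetal globin genes in red cells, and it is also required for B cell development and in neurons. Its expression in red cells depends on an enhancer inside an intron of the gene, which is known from both human and mouse. H3K4me3 marks promoters, H3K4me1 marks enhancers and promoter flanks, H3K4me2 marks both promoters and enhancers, and H3K27ac marks active promoters and enhancers.

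The promoter is shown because the text turns on how the start of the gene is marked. RefSeq gives these 300 bases, 250 before to 50 after its start of Bcl11a, on build GRCm38.p6 at chr11:24080445-24080744, plus strand. That build is not the build of the peaks, so the sequence was not placed under them. Capitals mark the motifs found, and positions count from 1 at the 5′ end.
Bcl11a promoter: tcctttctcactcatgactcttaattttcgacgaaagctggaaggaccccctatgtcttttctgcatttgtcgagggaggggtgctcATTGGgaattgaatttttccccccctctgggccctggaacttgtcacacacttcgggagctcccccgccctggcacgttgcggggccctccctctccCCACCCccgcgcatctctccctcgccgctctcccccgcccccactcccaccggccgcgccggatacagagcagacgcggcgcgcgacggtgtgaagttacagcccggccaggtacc
The sequence is rich in G and C, at 63% against a median of 52.7% over 32851 RefSeq promoters of the same length. It holds 23 CpG dinucleotides against a median of 7, and 78.5% of those promoters hold fewer. CCACCC, the letters of a GC-rich box that Krüppel-like factors bind, occurs once, on the plus strand at position 185, and 31.5% of promoters hold it on either strand. CCAAT occurs once, on the minus strand (ATTGG at position 88), and 37.4% of promoters hold it. GATAA, the letters that GATA factors bind, was not found on either strand of this window, and 25.4% of promoters hold it. The motifs do not overlap each other.

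The marks divided the locus into a promoter block, a long marked gene body and a 3′ stretch that was nearly free of peaks. The promoter block was defined by the H3K4me3 region on the gene start, and 19 of the 90 peaks met it. A further 61 peaks lay inside the approximate gene bounds without meeting that block, 4 lay upstream, 4 lay downstream and 2 crossed the gene end. The 61 intragenic peaks were 25 of H3K27ac, 17 of H3K4me2, 10 of H3K4me1, 6 of ATAC and 3 of H3K4me3. The 10 peaks upstream, downstream or over the gene end were all of H3K4me1 or H3K4me2, with fold enrichments of 2.27 to 3.06. Which intragenic peaks are exonic or intronic was not determined.

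**Figure D1:**
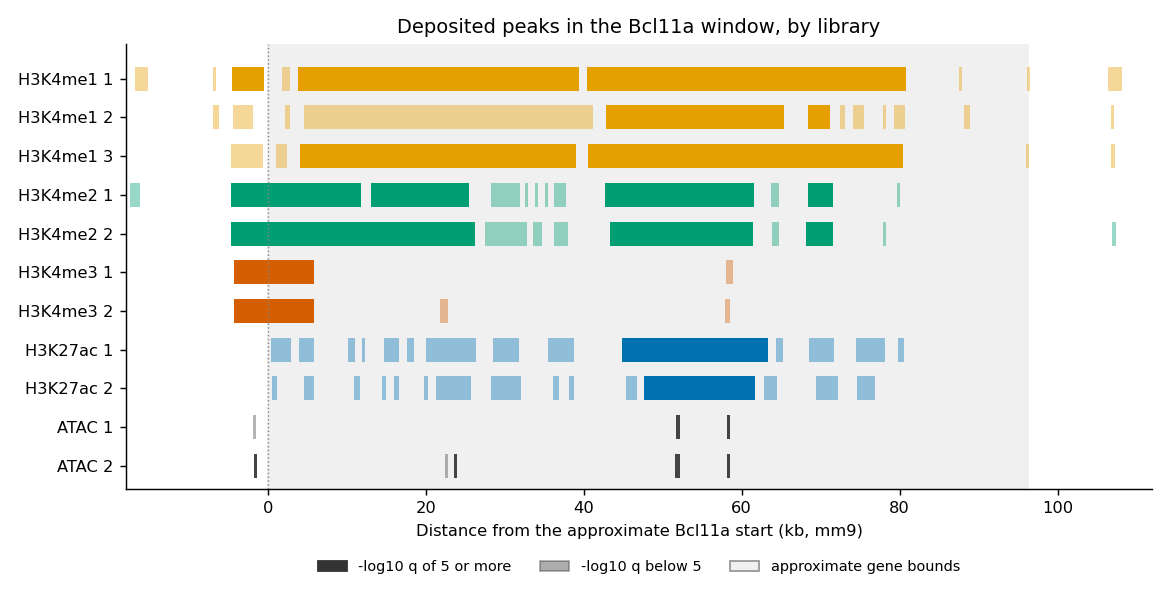
Each bar is 1 deposited peak, with 1 row per library and distance from the approximate Bcl11a start in kb on the horizontal axis; strong colour marks a −log10 q of 5 or more, pale colour a lower one, and grey the approximate gene bounds. H3K4me1 fills most of the gene up to about +80.8 kb, H3K4me3 sits at the start with small peaks inside the gene, H3K27ac begins after the start, and ATAC peaks appear at up to 5 sites.

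The start of Bcl11a carried H3K4me3 over a span that ranks among the widest in the fetal liver. The H3K4me3 peak ran over chr11:23973766-23983912 in library 1 and chr11:23973781-23983912 in library 2 (mm9). Its width of 10.147 kb in library 1 was the 13th largest of 14027 peaks, and that of 10.132 kb in library 2 the 35th largest of 16886. The consensus region, the merged stretch with a peak of both libraries, reached from −4.23 kb to +5.91 kb around the approximate start and ranked 38 of 13600 by width. The authors' fold enrichment there was 9.62 in library 1 and 13.4 in library 2, against list medians of 7.05 and 6.50. These values lay at percentiles 68.0 and 84.1 of their own lists, so the region ranked higher by width than by fold enrichment. The broad lists give 1 value per whole peak and no summit, so these values are not heights at a summit.

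H3K4me2 covered the same block without a gap. Its peak spanned 100% of the promoter region in both libraries, with a fold enrichment of 8.51 in library 1 and 5.54 in library 2, the highest H3K4me2 values at the locus. They lay at percentiles 97.2 and 85.1 of their lists. The H3K4me2 peak also ran on into the gene, to chr11:23989789 in library 1 and chr11:24004288 in library 2. Its fold enrichments thus belong to whole peaks of 16.407 kb in library 1 and 30.907 kb in library 2, not to the promoter region alone. The merged region of 30.907 kb ranked 40 of 35820 consensus H3K4me2 regions.

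H3K4me1 flanked the approximate gene start, with no listed peak over it in any of the 3 libraries. The gap over the approximate start measured 2.272 kb in library 1, 4.026 kb in library 2 and 1.704 kb in library 3, and the stretch shared by all of them was chr11:23977471-23979068. H3K4me1 peaks covered 67.6%, 42.8% and 67.9% of the promoter H3K4me3 region (mean 59.4% ± 14.4, SD, n = 3). Library 2 had the widest gap and the lowest share. Upstream of the gap, the H3K4me1 peak had fold enrichments of 3.01, 2.55 and 2.52.

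H3K27ac was thin at the promoter and lay on its downstream side in both libraries. It covered 42.8% of the promoter region in library 1 and 18.6% in library 2 (mean 30.7% ± 17.1, SD, n = 2). The first H3K27ac peak began at +0.45 kb in library 1 and +0.593 kb in library 2. No H3K27ac peak lay in the 18.45 kb before that, up to the window's upstream edge. The highest H3K27ac fold enrichment in the promoter region was 2.70 in library 1 and 2.21 in library 2, against list medians of 2.86 and 2.75. Its −log10 q was 4.52 and 1.96, so no promoter H3K27ac peak passed a −log10 q of 5 in either library.

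Open chromatin at the promoter was a single narrow site 1.61 kb before the approximate start, and no ATAC peak covered the start itself. The site (chr11:23976222-23976554, mm9) was 333 bp wide, and the summits of the libraries were 86 bp apart. Its fold enrichment was 2.77 in library 1 and 3.52 in library 2, which placed it at percentiles 0.352 and 6.83 of the 18441 and 28980 ATAC peaks. Its −log10 q was 3.68 in library 1 and 10.9 in library 2, so it passed a −log10 q of 5 in library 2 only. Among ATAC peaks inside consensus H3K4me3 regions, whose median fold enrichment was 7.33 in library 1 and 7.35 in library 2, only 46 of 13393 (0.343%) and 1378 of 15567 (8.85%) were lower. The site was low in its class in both libraries.

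**Figure D2:**
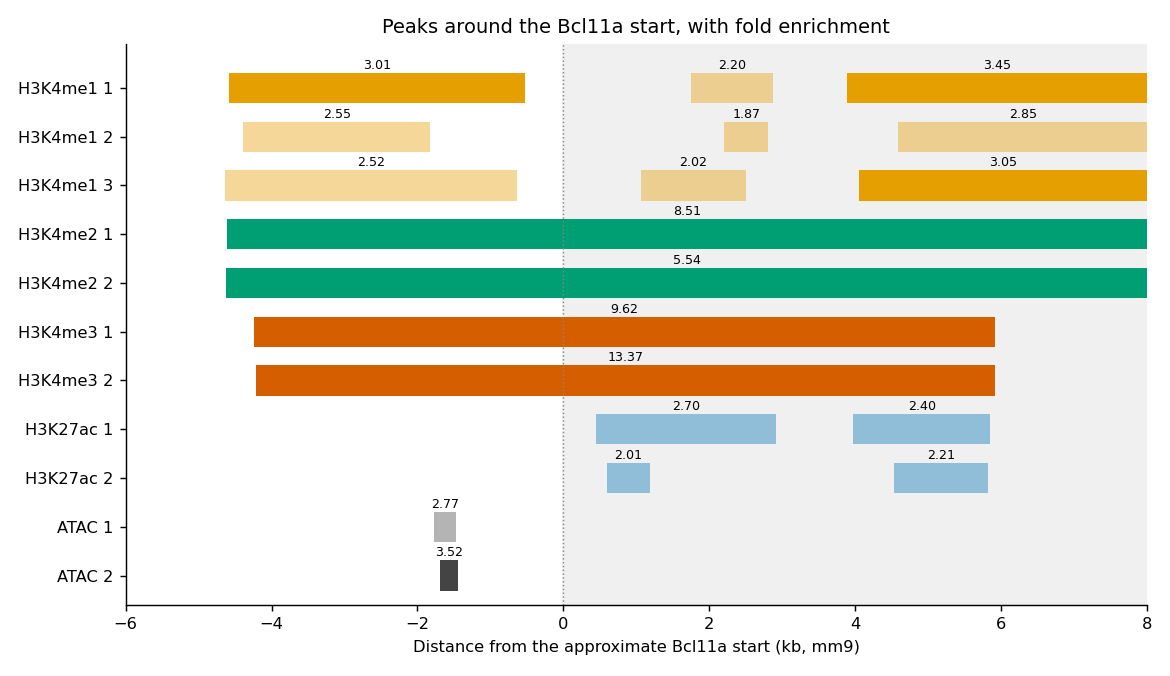
Peaks from 6 kb before to 8 kb after the approximate Bcl11a start, 1 row per library, with the authors' fold enrichment above each bar, strong colour for a −log10 q of 5 or more and pale colour below 5. H3K4me2 and H3K4me3 cross the start, H3K4me1 leaves a gap over it in its 3 libraries, H3K27ac begins at +0.45 kb or later, and the ATAC peak lies at −1.61 kb with a fold enrichment of 2.77 and 3.52.

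The Bcl11a promoter was set beside the 115 other consensus H3K4me3 regions of 8 to 12 kb, a range chosen after its width was known. Regions of 1 genome are not replicates, so these ranks are descriptions with no test. H3K27ac covered 30.7% of the Bcl11a region, against a median of 97.1% (quartiles 86.3% and 100%), and 6 of the 115 were lower. H3K4me1 covered 59.4%, against a median of 82.8%, with 5 lower. ATAC peaks covered 2.72%, against a median of 13.8%, with 1 lower. H3K4me3 itself was unremarkable for the width. Its fold enrichment of 9.62 in library 1 stood against a median of 10.1 (45 lower), and that of 13.4 in library 2 against a median of 11.9 (76 lower).

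Inside the gene, H3K4me1 formed 1 of the longest merged domains of the genome. Its widest consensus region ran over chr11:23981891-24058752 (mm9), +3.89 to +80.8 kb from the approximate start, and its 76.862 kb ranked 4 of 30213. That stretch joins 2, 7 and 2 peaks of libraries 1, 2 and 3, so its rank rests on merging across libraries. The break between the 2 peaks of libraries 1 and 3 was bridged by a peak of library 2. The longest single peaks measured 40.386, 36.57 and 39.919 kb in libraries 1, 2 and 3, ranking 38, 25 and 25 in their lists. Over the approximate gene body, H3K4me1 peaks covered 80.4%, 69.6% and 79.5% (mean 76.5% ± 5.98, SD, n = 3). The highest fold enrichment was 3.89, 3.29 and 3.28, at percentiles 92.5, 90.1 and 87.3 of the lists. In libraries 1 and 3 the peak with that value was the 40.386 kb and 39.919 kb stretch of the distal gene, and in library 2 it was a peak of 2.722 kb at chr11:24046454-24049175.

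H3K27ac broke into 10 consensus regions within the gene, 2 of them in the promoter block. Of the rest, 7 were 1.49 to 6.559 kb wide and 1 was far wider. That region, chr11:24022807-24043198 (mm9), lay +44.8 to +65.2 kb from the approximate start, and its 20.392 kb ranked 186 of 18236. It held the highest H3K27ac fold enrichment of the window, 3.62 in library 1 and 3.38 in library 2, at percentiles 78.5 and 78.8. It was also the only H3K27ac region with a peak past a −log10 q of 5, at 7.67 in library 1 and 7.85 in library 2. The second highest −log10 q in library 1, 4.73, and in library 2, 4.72, belonged to a region at +68.5 to +72.2 kb (chr11:24046465-24050220).

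The other acetylated regions had lower fold enrichments than both of these and were shorter than the 20.392 kb region. Going down the gene, they lay at chr11:23978450-23980909 and chr11:23981972-23983849 in the promoter block, then at chr11:23988147-23989636, chr11:23992483-23994620 and chr11:23997786-24004344. Further on they lay at chr11:24006284-24010112, chr11:24013419-24016799 and chr11:24052472-24056190. Their fold enrichments were 2.01 to 2.89. Outside the consensus regions, 3 peaks of library 1 had no partner in library 2, the highest at 3.25 (chr11:23995576-23996562). In the 31.439 kb from chr11:24058562 to the downstream edge no H3K27ac peak was listed.

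The distal H3K27ac region contained the 2 open sites of the gene body that both proerythroblast libraries shared. The site with the higher enrichment lay at +58.3 kb (chr11:24036117-24036581, 465 bp), with a fold enrichment of 4.97 in library 1 and 6.27 in library 2 and summits 26 bp apart. The other lay at +51.9 kb (chr11:24029564-24030234, 671 bp), with 3.89 in library 1 and 5.21 in library 2 and summits 78 bp apart. Both passed a −log10 q of 5 in each library. By fold enrichment, the +58.3 kb site lay at percentiles 31.0 and 53.9 of the lists. The +51.9 kb site lay lower, at 10.3 in library 1 and 38.7 in library 2, and so was among the weaker peaks of library 1. Among ATAC peaks that met consensus H3K27ac and no consensus H3K4me3, the class of the +51.9 kb site, 9.60% in library 1 and 40.9% in library 2 were lower than that site.

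Of these 2 sites, the +58.3 kb site was also marked by H3K4me3 and the +51.9 kb site was not. Small H3K4me3 peaks covered it in both libraries, with fold enrichments of 3.00 in library 1 and 3.10 in library 2, far below the 9.62 and 13.4 of the promoter. Their −log10 q was 1.55 and 2.56, and their fold enrichment lay at percentiles 6.84 and 12.5 of the lists. Their consensus region, chr11:24035930-24036901 (mm9), was 0.972 kb wide and ranked 11752 of 13600. With them, all 9 histone lists had a peak on this site, whereas 7 had one on the +51.9 kb site and 6 on the promoter site. The promoter site lacked both H3K27ac lists and H3K4me1 library 2.

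ATAC library 2, whose list was longer, had 2 further sites that library 1 did not list. They lay at +22.7 kb (chr11:24000542-24000785) and +23.8 kb (chr11:24001719-24001924), with fold enrichments of 3.60 and 3.99 and a −log10 q of 4.85 and 6.26. Among library 2 ATAC peaks with consensus H3K27ac and no consensus H3K4me3, 6.62% and 13.9% were lower. Both sites lay under all the H3K4me1, H3K4me2 and H3K27ac lists. A small H3K4me3 peak of library 2, with a fold enrichment of 2.57, met the +22.7 kb site. Sequencing depth is unknown, so a missing peak in library 1 does not show a closed site.

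**Figure D3:**
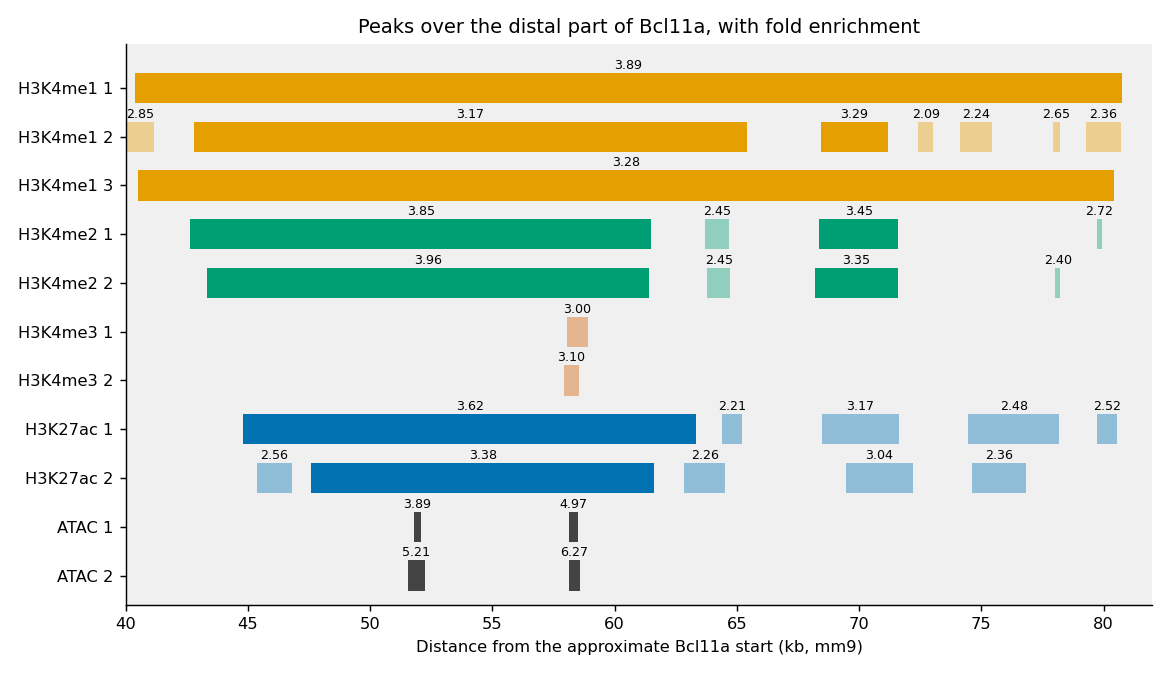
Peaks from 40 to 82 kb after the approximate Bcl11a start, 1 row per library, with the authors' fold enrichment above each bar, strong colour for a −log10 q of 5 or more and pale colour below 5. The ATAC peaks at +51.9 and +58.3 kb stand inside the widest H3K27ac peak of each library, and the small H3K4me3 peaks of 3.00 and 3.10 lie on the +58.3 kb site.

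Counts of these overlaps were read against the whole genome. Of the 3 consensus ATAC sites in the window, 1 met consensus regions of all 4 marks, against 57.3% of the 16271 sites in the genome. Another 1 of the 3 met H3K4me3 without H3K27ac, against 13.6%. Of the 10 consensus H3K27ac regions, 1 held a consensus ATAC site, against 55.7% of 18236, and 3 met H3K4me3, against 49.4%. Both H3K4me3 regions met H3K27ac, against 68.3% of 13600, and both met an ATAC site, against 78.8%. With so few regions these counts are descriptions.

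The distal acetylated region was set beside the 303 other consensus H3K27ac regions of 15 to 25 kb, and the H3K4me1 domain beside the 26 others of 50 to 200 kb. H3K4me1 covered 100% of the acetylated region, against a median of 87.2% (288 lower). Its highest H3K27ac fold enrichment was 3.62 in library 1 against a median of 5.16 (22 lower), and 3.38 in library 2 against 4.63 (23 lower). It held 2 ATAC sites, and the median was also 2. For the H3K4me1 domain, H3K27ac covered 53.1%, against a median of 80.0% with 1 lower, and H3K4me3 covered 4.23%, against 12.1% with 1 lower. H3K4me2 covered 66.8%, against 65.9%. The domain was thus long in H3K4me1, with a lower share under H3K27ac and H3K4me3 than nearly all of the others of its size. It began at +3.89 kb, so most of the promoter H3K4me3 region lay outside it. Whether the other domains ran through promoters was not checked, and these ranks were not tested.

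Over the whole window, H3K4me1 covered 85.323, 70.645 and 81.084 kb (mean 79.0 kb ± 7.55, SD, n = 3). H3K4me2 covered 59.141 and 62.261 kb (60.7 kb ± 2.21, n = 2), H3K27ac covered 48.403 and 36.241 kb (42.3 kb ± 8.60, n = 2) and H3K4me3 covered 10.991 and 11.74 kb (11.4 kb ± 0.530, n = 2). The ATAC libraries covered 0.958 and 1.832 kb (1.40 kb ± 0.618, n = 2). The lowest H3K4me1 library lay above the higher H3K27ac library, and both H3K27ac libraries lay above both of H3K4me3. H3K4me1 exceeded H3K4me3 by 67.7 kb (two-sided exact permutation test, p = 0.2, Benjamini-Hochberg adjusted p = 0.3 over 3 pairs). H3K27ac exceeded H3K4me3 by 31.0 kb (exact p = 0.33, adjusted p = 0.33), and H3K4me1 exceeded H3K27ac by 36.7 kb (exact p = 0.2, adjusted p = 0.3). Each p is the smallest its group sizes allow, so none of these comparisons could pass 0.05.

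The window was more densely marked than the rest of the genome for every mark. It is mostly gene and was chosen with earlier results known, and the rest of the genome was not matched to it for genes. The ratios and ranks are therefore descriptions. H3K4me1 covered 60.8% ± 5.81 of the window, against 4.25% ± 0.771 of the rest (SD, n = 3), a mean ratio of 14.4 ± 1.33. The ratio was 13.6 ± 0.276 for H3K4me2, 14.1 ± 0.932 for H3K27ac and 7.68 ± 1.05 for H3K4me3 (SD, n = 2 each). ATAC peaks covered 1.07% ± 0.475 of the window, against 0.466% ± 0.124 of the rest, a ratio of 2.25 ± 0.420 (SD, n = 2). Among 19746 stretches of the same width, 15 to 23 had as much H3K4me1 cover, depending on the library, and 8 to 15 as much H3K4me2. For H3K27ac the numbers were 126 and 194, and for H3K4me3 297 and 459. For ATAC they were 3998 and 3011, or 20.2% and 15.2% of the stretches, so the locus was far less exceptional in open bases than in methylated or acetylated ones.

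**Figure D4:**
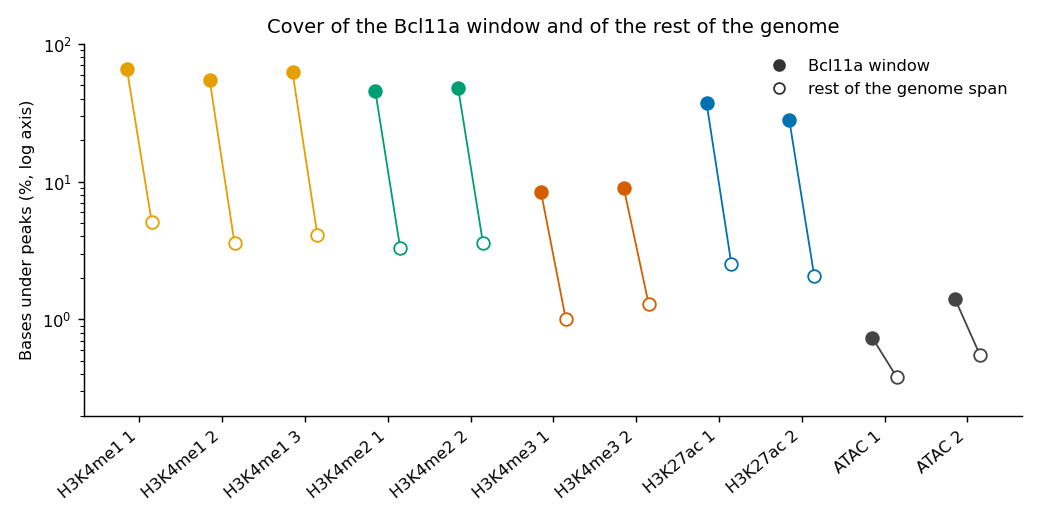
Percent of bases under peaks, on a log axis, for each library, with filled points for the Bcl11a window and open points for the rest of the genome span and a line joining them. H3K4me1, H3K4me2 and H3K27ac lie about as far above the rest of the genome as each other, H3K4me3 less far, and ATAC the least, with a mean ratio of 2.25.

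The layers were nested in part. Of the H3K27ac bases in the window, 95.3% ± 4.16 lay under H3K4me1 (SD over 6 library pairs that share libraries), against 76.7% genome-wide, and 83.5% ± 3.05 lay under H3K4me2, against 69.9%. H3K4me1 and H3K4me2 covered 60.8% and 46.7% of the window, against 4.25% and 3.44% of the rest. Whether the shares under them exceed what that cover alone gives was not tested. H3K4me2 covered 100% of the H3K4me3 bases, against 99.3% genome-wide, and 100% of the ATAC bases, against 93.5%. Of the H3K4me3 bases, 38.1% ± 12.7 lay under H3K27ac (SD over 4 library pairs), against 64.6% ± 4.21 genome-wide. Under H3K4me1 lay 63.7% ± 11.6 of them (SD over 6 library pairs), against 73.7% ± 10.3 genome-wide. Libraries of each histone mark shared most of the bases covered in either. The ATAC libraries shared 0.871 kb, most of the 0.958 kb of library 1 but not of the 1.832 kb of library 2. The Jaccard index (bases in both libraries over bases in either) was 0.784 to 0.933 for the 3 H3K4me1 pairs, 0.872 for H3K4me2, 0.876 for H3K4me3, 0.637 for H3K27ac and 0.454 for ATAC. Genome-wide the same index averaged 0.650, 0.781, 0.734, 0.652 and 0.577 in that order of marks, so the index was lower at the locus than genome-wide for H3K27ac and ATAC.

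The 3′ end of the gene was bare. No list had a peak in the 6.781 kb of chr11:24058753-24065533, the 7.152 kb of chr11:24066942-24074093 or the 10 kb of chr11:24074430-24084429 (mm9). Between them, H3K4me1 library 1 had a peak of 278 bp and library 2 one of 775 bp. Libraries 1 and 3 each had 1 short H3K4me1 peak over the approximate gene end, with fold enrichments of 2.66 and 3.06. A weak H3K4me1 region beyond the gene, chr11:24084430-24086095, was seen in all 3 libraries. Upstream, no list had a peak in the 8.156 kb of chr11:23962892-23971047.

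**Figure D5:**
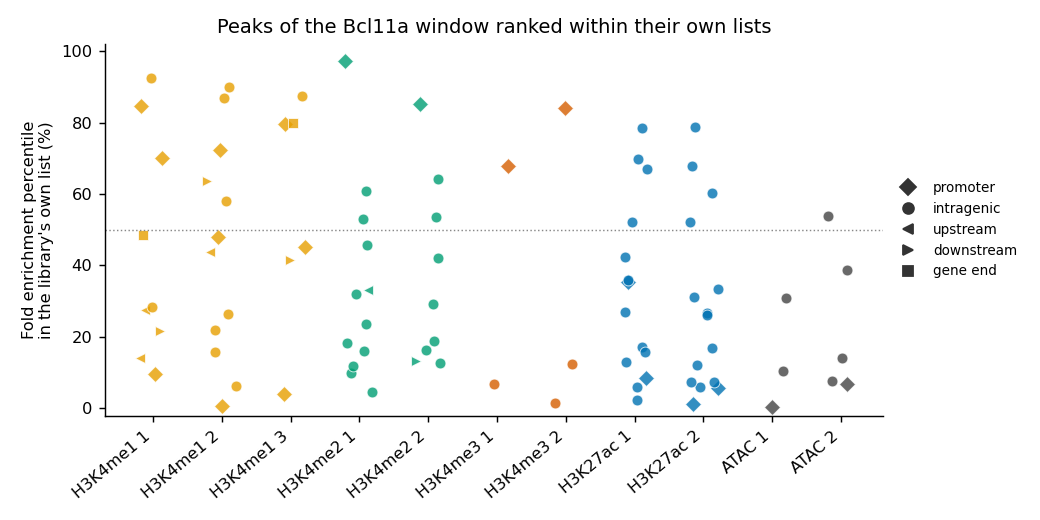
Each point is 1 of the 90 peaks, placed by the percentile of its fold enrichment in its own library's list, with shapes for its place at the locus; the horizontal spread within a library is only to separate points. The promoter peaks stand highest in the H3K4me2 and H3K4me3 lists and near the bottom in the ATAC lists (0.352 and 6.83), and the distal gene peaks stand highest for H3K27ac (78.5 and 78.8).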

How the data were processed

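Per the submitters' processing notes, reads were handled with Trimmomatic 0.32, Bowtie 1.0.1, SAMtools and MACS2 on mouse build mm9. Not given in the sources used here are the parameters, which control was used and the version of MACS2. Each library has its own list, which the authors deposited in the broad format for ChIP and the narrow format for ATAC. For each peak the authors deposited a score, a fold enrichment (a ratio to background, as MACS2 writes it), a −log10 p and a −log10 q, and for ATAC a summit. For ChIP, the fold enrichment is 1 value for a whole peak, wide or narrow, with no summit. The deposited values described, ranked and filtered peaks within 1 list and were not compared as levels between marks. The protocol text attached to the ATAC samples describes ChIP, so how they were made is not stated.

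The lists hold no read counts, so depth is unknown and no interval was computed. Only the numbered chromosomes, X and Y entered, which set aside 7 mitochondrial peaks. The window and the approximate gene bounds came from the rule. A consensus region was a merged stretch with at least 1 peak of every library of its group, and overlap meant at least 1 bp. Genome cover was taken over the 2568.43 Mb between the first and last peaks of each chromosome. Covered length was compared by two-sided exact permutation tests over libraries, adjusted over 3 pairs. Interval code was tested on simulated data. Python 3.11.15, numpy 2.4.6, pandas 2.3.3 and scipy 1.17.1 were used.

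The locus and the lists of regions were chosen with earlier results of these data known. Regions named were the promoter H3K4me3 region, every consensus H3K4me3, H3K27ac and ATAC region, ATAC peaks of 1 library, the peak of highest fold enrichment in each list and the widest H3K4me1 and H3K4me2 regions. A few others, such as stretches without peaks and the unpaired H3K27ac peak, were chosen after their values were seen. Positions of the GRCm38 tables were not placed on the lists. Alternatives were a −log10 q of 5 or more, other overlaps and windows, leaving out each library and a replicate block.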

Additional observations from a re-analysis of the deposited data

How the results depend on the processing

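Of 117 alternatives over 20 results, 100 stayed within the spread between libraries or on the same side, 17 moved and 0 reversed. The 100 include alternatives that could not differ, such as unclipped peaks, since no peak touched an edge, and H3K27ac within the gene bounds. The tally is therefore no measure of robustness. A fall from 3 to 2 consensus ATAC sites was also counted among the 100. A −log10 q of at least 5 accounted for most of the 17. It left a mean cover of 60.1 kb ± 30.2 (SD, n = 3) for H3K4me1. The 36.57 kb proximal H3K4me1 peak of library 2 was lost, at a −log10 q of 3.76. Those of libraries 1 and 3 were kept, at 6.53 and 5.35. Mean cover was 51.6 kb for H3K4me2, 10.1 kb for H3K4me3 and 16.3 kb for H3K27ac. The ratio to the rest of the genome was 22.1 for H3K4me1 and 8.65 for H3K27ac. This cutoff left 16 intragenic peaks, 7 libraries with a promoter peak and 0% of the promoter region under H3K27ac. It left 0 ATAC sites meeting H3K4me3 and 0 meeting all 4 marks. Within the gene bounds alone, H3K4me2 covered 55.2 kb and H3K4me3 7.14 kb. Leaving out each ATAC library gave 3 to 5 sites, of which 2 to 4 met H3K27ac. Without ATAC replicate 1, or counting sites of either library, there were 5, of which 4 met H3K27ac. The promoter ATAC site, with a −log10 q of 3.68 in library 1, was also lost at a −log10 q of at least 5, which left 2 consensus ATAC sites. The H3K27ac cover of the promoter and the H3K4me3 at +58.3 kb thus rest on peaks below a −log10 q of 5. Depth is unknown, and its part in these results was not tested.

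With the replicate number as a replicate block, the differences were 66.6 kb (H3K4me1 over H3K4me3), 31.0 kb (H3K27ac over H3K4me3) and 35.7 kb (H3K4me1 over H3K27ac), each at an exact p of 0.5, the smallest that 2 pairs allow. Deviations of same-numbered libraries over 19746 stretches correlated at −0.616 to −0.609, −0.459 and 0.485 to 0.50 in that order. The numbers do not follow the date-like tags in the titles: H3K27ac library 1 and H3K4me3 library 2 share the 3-18 tag. The labels thus link same-numbered libraries of these pairs by number alone, and whether any libraries share material is not stated. A crossed pairing of H3K27ac with H3K4me3, added after seeing the data, gave 31.0 kb. Any pairing of 2 with 2 libraries must give that mean difference, so it adds no support. Libraries with the 3-18 tag alone differed by 36.7 kb (H3K27ac over H3K4me3), a single value with no test.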
